A study of Mus musculus with 3 samples.

Results

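Gluconeogenesis and glycogen turnover were described for 10 genes chosen by name for their known roles, with earlier results of these data known. Together they hold 12 probes of the 55681 on each array, and are 10 of the 13626 genes measured on all 3 arrays. No gene of the 10 differed by 2-fold between any pair of the 3 arrays. Tat, Pck1 and Ppp1r3b shared the widest pattern, being highest in the 1SA liver, intermediate in the WT liver and lowest in the 2SA liver. Gys2 was lowest in the 2SA liver, with its WT and 1SA levels close together, and G6pc was highest there. Fbp1, Pygl, Pcx, Ppargc1a and Ppp1r3c each spanned less than 0.18 on the log2 scale over the 3 arrays.

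The samples were livers of C57BL/6J mice (c57BL6/J in the labels) taken at day 2 after plasmid delivery by hydrodynamic tail vein injection. Young adult males were mainly used per the methods of the study, and whether the mice had been fed or fasted at collection was not given in the sources used here. Group WT received human wild-type YAP, group 1SA received the mutant YAP (1SA) and group 2SA received YAP (2SA). YAP is the transcriptional coactivator restrained by Hippo signalling, and in the SA mutants serines that Hippo kinases phosphorylate are replaced by alanine. All groups carried the transgene in a vector with an enhancer of the AFP gene and a minimal albumin promoter, so that it was expressed in hepatocytes, and only in those that took up the plasmid. Each group held 1 array of total RNA from whole liver, and the sources do not say whether that RNA came from 1 animal or a pool. In its label the WT liver is numbered 2, with no meaning given. The construct and the individual liver therefore cannot be told apart, and no test between groups, p-value or spread between animals could be given. In whole tissue, fewer cells of a type and less RNA per cell cannot be told apart either.

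Gluconeogenesis makes glucose from lactate, amino acids and glycerol, and in the fasted liver it is driven by glucagon and glucocorticoids and held back by insulin. Pyruvate carboxylase (Pcx) and phosphoenolpyruvate carboxykinase (Pck1) carry pyruvate to phosphoenolpyruvate, fructose-1,6-bisphosphatase (Fbp1) bypasses the committed step of glycolysis, and glucose-6-phosphatase (G6pc) releases free glucose. Glycogen is built by glycogen synthase and cut by glycogen phosphorylase, and targeting subunits of protein phosphatase 1 bring the phosphatase that switches both enzymes to the glycogen particle.

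Levels below are spot intensities, the brightness of a probe on a linear scale. Differences are differences of log2 intensity after division by the 75th percentile of each array, an intensity of 290.8 (WT), 275.7 (1SA) and 319.5 (2SA). On each array all 12 probes stood well above background, and no spot of theirs was flagged or saturated. Each had 1 spot per array. The only repeat measurement came from other probes with 10 spots per array, which set a limit of 2 SD for a difference. This limit was 0.13 for bright probes, 0.18 for those between 1 and 8 times the percentile and 0.35 for those below it. Spot error is all that it holds, and differences between animals are outside it.

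Sequence at the start of 4 genes is shown because they carry the contrast in the data. Pck1, Tat and G6pc are those with the widest spread over the arrays among the members with an entry in the promoter table, and Fbp1 is the gene with the narrowest. The windows are from RefSeq on GRCm38.p6, hold 250 bases before and 50 after the annotated start, and are written 5′ to 3′ on the strand of the gene. Capitals mark matches to the motifs named after the sequences, on either strand. The Pck1 window is chr2:173152823-173153122 on the plus strand, that of Tat is chr8:109990186-109990485 on the plus strand, that of G6pc is chr11:101367466-101367765 on the plus strand and that of Fbp1 is chr13:62888233-62888532 on the minus strand.
Pck1: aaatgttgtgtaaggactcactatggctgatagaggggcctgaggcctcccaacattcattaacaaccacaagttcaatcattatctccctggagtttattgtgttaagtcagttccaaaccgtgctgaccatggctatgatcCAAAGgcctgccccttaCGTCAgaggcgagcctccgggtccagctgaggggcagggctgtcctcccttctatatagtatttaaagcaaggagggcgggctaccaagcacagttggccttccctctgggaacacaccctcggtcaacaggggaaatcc
Tat: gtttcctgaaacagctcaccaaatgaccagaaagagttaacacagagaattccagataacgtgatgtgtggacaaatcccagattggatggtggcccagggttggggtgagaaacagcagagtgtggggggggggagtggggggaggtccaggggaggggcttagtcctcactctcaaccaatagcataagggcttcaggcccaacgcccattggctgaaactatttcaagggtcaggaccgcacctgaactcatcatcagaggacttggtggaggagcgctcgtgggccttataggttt
G6pc: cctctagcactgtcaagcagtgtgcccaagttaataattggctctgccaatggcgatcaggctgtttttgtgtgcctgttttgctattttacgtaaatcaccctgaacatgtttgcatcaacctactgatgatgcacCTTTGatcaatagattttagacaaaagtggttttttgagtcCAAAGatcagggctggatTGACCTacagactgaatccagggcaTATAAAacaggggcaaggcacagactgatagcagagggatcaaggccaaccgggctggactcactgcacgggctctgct
Fbp1: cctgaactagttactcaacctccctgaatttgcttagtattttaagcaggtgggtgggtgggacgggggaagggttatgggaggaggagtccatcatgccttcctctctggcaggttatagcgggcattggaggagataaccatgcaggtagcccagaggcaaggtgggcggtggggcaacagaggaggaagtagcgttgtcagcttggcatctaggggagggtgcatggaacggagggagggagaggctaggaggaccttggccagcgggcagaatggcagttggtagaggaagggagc

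The motifs searched were a fixed list, and both strands were read. The full cyclic AMP response element TGACGTCA was present in 0 of the 8 members that have a promoter entry, and in 1.79% of 32851 promoters. Its shorter core TGACG, which lies within the full element, was found in 3 members (Pck1, Ppargc1a and Pygl) and in 20.8% of promoters. In Pck1 it lies on the minus strand at -90 to -86 from the start and reads CGTCA on the strand shown. CAAAG, the core of a site for HNF4, was found in 5 members and in 53.9% of promoters. AGGTCA, the core that many nuclear receptors bind, was found in 3 members (G6pc, Pcx and Pygl) and in 16.3% of promoters. Pcx has 2 windows, so the 8 members hold 9, and a match in either window of Pcx was counted. Its AGGTCA lay only in the second window, after the start. The E-box CACGTG was found in Pcx and Ppp1r3c and in 7.15% of promoters. G6pc alone among the 8 had a TATAAA, at -29 to -24, against 13.6% of promoters. TGTTCT (glucocorticoid receptor), TGTTTAC (forkhead factors) and GGAATG (TEAD, the partner of YAP) had no match in the 8 members, and matched 19.0%, 3.65% and 14.7% of promoters. Tat and Fbp1, the genes with the widest and the narrowest spread, both had no match to any of these motifs. These letters are descriptions of short windows and not measured binding. Gys2 and Ppp1r3b have no entry in the promoter table.

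**Figure D1:**
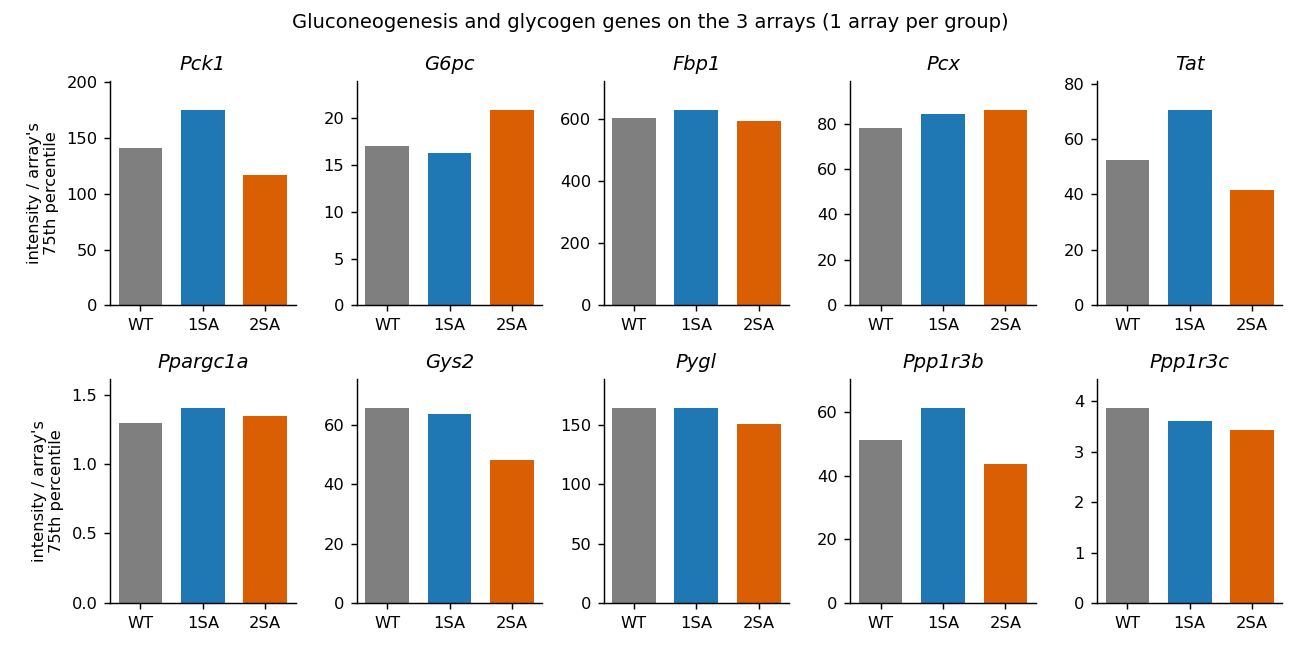
Level of each of the 10 genes on the 3 arrays, as spot intensity divided by the 75th percentile of the array (vertical axis, starting at 0 and scaled per gene), 1 bar per array with no error bar because each group held 1 array. Pck1, Tat and Ppp1r3b are highest in 1SA and lowest in 2SA, Gys2 is lowest and G6pc highest in 2SA, and the other 5 genes are nearly level.

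Among the enzymes of gluconeogenesis, Pck1 (NM_011044), which makes phosphoenolpyruvate from oxaloacetate, read 41064 in the WT liver, 48246 in 1SA and 37428 in 2SA. It was higher in the 1SA liver than in WT (log2 difference 0.31) and lower in the 2SA liver than in WT (-0.27). The span from 1SA to 2SA was -0.58, so that 2SA held 0.67 times the 1SA level. These 3 differences were all beyond the limit of 0.13.

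G6pc (NM_008061), the enzyme of the last step, did not share this order. Its intensity was 4948 in the WT liver, 4500 in 1SA and 6668 in 2SA. The 2SA liver was higher than WT by 0.29 and higher than 1SA by 0.35, which is 1.28 times the 1SA level. The 1SA and WT levels lay within the limit of each other (-0.06). Pck1 and G6pc, which are usually named together as targets of glucagon and insulin, thus differed in opposite directions between 2SA and the other livers.

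Fbp1 (NM_019395) was nearly level, with an intensity of 174926 in the WT liver, 172874 in 1SA and 188838 in 2SA before scaling. Its differences were 0.06 for 1SA versus WT, -0.03 for 2SA versus WT and -0.09 for 2SA versus 1SA, all within the limit. Their signs turned with quantile normalisation and with scaling to hepatocyte markers. The sign for 2SA versus WT turned also with normexp background correction and with the authors' matrix values. Pcx (NM_001162946), which supplies oxaloacetate in the mitochondrion, read 22667 in the WT liver, 23259 in 1SA and 27434 in 2SA. It was higher than WT by 0.11 in 1SA, within the limit, and by 0.14 in 2SA, just beyond it. The 2SA and 1SA livers differed by 0.03.

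Tat (NM_146214) encodes tyrosine aminotransferase, the first enzyme of tyrosine breakdown and a classical gene of the glucocorticoid response, which feeds amino acid carbon towards glucose. Its intensity was 15236 in the WT liver, 19415 in 1SA and 13305 in 2SA. It differed most of the 10 genes. The 1SA liver was higher than WT by 0.43 and the 2SA liver lower than WT by a log2 difference of -0.33. From 1SA to 2SA the difference was -0.76, or 0.59 times the 1SA level. In size that difference exceeded those of 93.1% of all genes and of 97.9% of the 1363 brightest genes.

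Ppargc1a (NM_008904) encodes PGC-1alpha, the coactivator that raises gluconeogenic transcription in fasting. It is read by a pair of probes. The brighter probe read 376.7 in the WT liver, 387.0 in 1SA and 430.1 in 2SA, and its differences of 0.12 for 1SA versus WT, 0.06 for 2SA versus WT and -0.06 for 2SA versus 1SA were all within the limit. The dimmer probe had 42.0, 54.6 and 58.7, and was higher than WT by 0.45 in 1SA, beyond its limit of 0.35, and by 0.34 in 2SA, within it. Both probes placed 1SA and 2SA above WT, but they disagreed on how far.

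**Figure D2:**
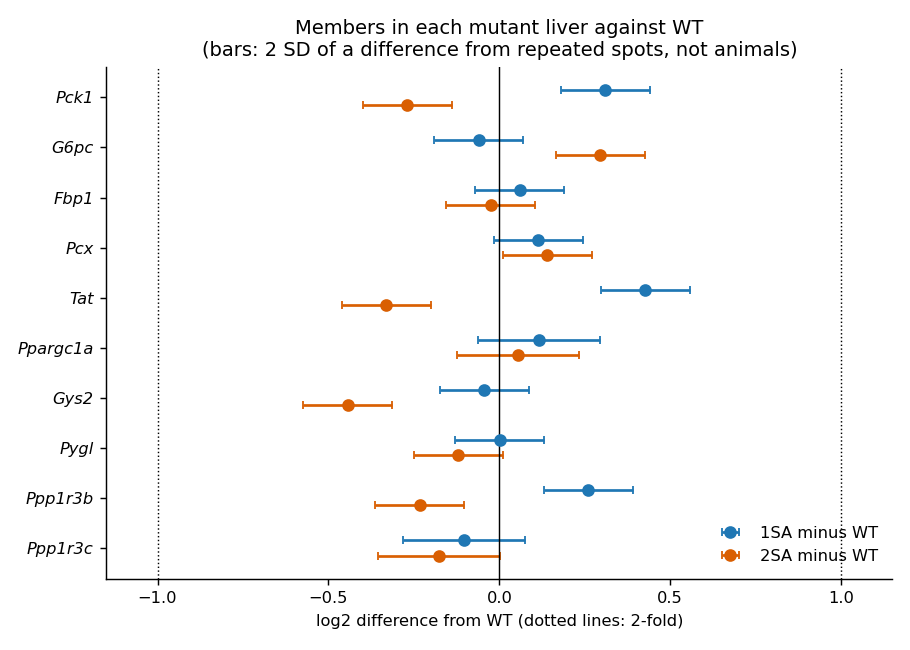
Log2 difference of 1SA (blue) and 2SA (orange) from WT for each gene, on the horizontal axis, with bars of 2 SD of a difference from repeated spots and dotted lines at 2-fold. Tat, Pck1 and Ppp1r3b lie to the right of 0 in 1SA and to the left in 2SA, with bars that do not reach 0, and no point reaches a dotted line.

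On the side of glycogen, Gys2 (NM_145572), the glycogen synthase of liver, read 19121 in the WT liver, 17584 in 1SA and 15452 in 2SA. The 2SA liver was lower than WT by a log2 difference of -0.44, or 0.74 times the WT level, and lower than 1SA by -0.40. The 1SA liver and WT were within the limit (-0.04). The other Gys2 probe had 3306, 2952 and 2849 and gave the same order, with -0.35 for 2SA versus WT, -0.26 for 2SA versus 1SA and -0.09 for 1SA versus WT. In size the difference of the brighter probe from WT exceeded those of 96.3% of the same 1363 brightest genes.

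Pygl (NM_133198), the phosphorylase that cuts liver glycogen, read 47821 in the WT liver, 45365 in 1SA and 48336 in 2SA. After scaling, WT and 1SA were level (0.0009) and 2SA was lower by -0.12 than either, within the limit of 0.13. The synthase thus differed beyond the limit in 2SA and the phosphorylase did not.

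Of the targeting subunits, Ppp1r3b (NM_177741) encodes the one most abundant in liver, which promotes glycogen storage. Its intensity was 14881 in the WT liver, 16893 in 1SA and 13912 in 2SA. It was higher than WT by 0.26 in 1SA, lower than WT in 2SA (-0.23) and lower in the 2SA liver than in 1SA (-0.49, or 0.71 times the level), all beyond the limit. Ppp1r3c (NM_016854), a related subunit found in several tissues, had 1125, 993.3 and 1093. Its differences were -0.10 for 1SA versus WT, -0.18 for 2SA versus WT and -0.07 for 2SA versus 1SA, none beyond its limit of 0.18, which the middle value nearly reached. Levels of different probes were not set against each other, because probes differ in how strongly they bind.

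The range over the 3 arrays orders the genes by how much they varied. It was 0.76 for Tat, 0.58 for Pck1, 0.49 for Ppp1r3b, 0.44 for Gys2 and 0.35 for G6pc, and these 5 exceeded the median range of all genes, 0.25. Ppp1r3c had a range of 0.18, Pcx of 0.14, Pygl and Ppargc1a of 0.12 each and Fbp1 of 0.09. Neighbours in this order differed by 0.18 or less, and no test separates them. The enzyme steps of gluconeogenesis were spread through this order, with Pck1 near the top, G6pc in the middle, Pcx below it and Fbp1 last.

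Counted together, 0 of the 10 genes were at least 2-fold apart in any comparison, where 1.86% of all genes were for 1SA versus WT, 1.67% for 2SA versus WT and 3.60% for 2SA versus 1SA. At 1.5-fold, 0 genes passed for 1SA versus WT and 0 for 2SA versus WT, against 7.75% and 6.80% of all genes. Tat alone passed for 2SA versus 1SA, where 11.6% of all genes passed in either direction and 4.56% were lower. With 10 genes, the share over all genes gives about 1 gene, so the count was near that background. This background includes dim genes, and such differences were rarer among the 1363 brightest genes, which include Tat and Pck1. There the -0.58 of Pck1, just short of 1.5-fold, exceeded 95.6% of genes in size.

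Beyond the limit from repeated spots, 3 genes (Tat, Pck1 and Ppp1r3b) were higher in the 1SA liver than in WT and 0 were lower, against 16.4% and 17.3% of all genes. In 2SA versus WT, 2 genes (G6pc and Pcx) were higher and 4 (Gys2, Tat, Pck1 and Ppp1r3b) lower, against 14.6% and 18.9%. In 2SA versus 1SA, 1 gene (G6pc) was higher and 4 (Tat, Pck1, Ppp1r3b and Gys2) were lower, against 19.3% and 24.5%. The median difference of the 10 genes was 0.09 for 1SA versus WT, -0.15 for 2SA versus WT and -0.10 for 2SA versus 1SA. The first turned to -0.016 with quantile normalisation and the last to 0.056 with scaling to hepatocyte markers. Over all genes the medians were -0.002, -0.03 and -0.03. The median size of the difference, whatever its sign, was 0.11, 0.20 and 0.24 for the 10 genes and 0.14, 0.14 and 0.18 for all genes. The comparisons share arrays, so they are not separate lines of evidence.

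**Figure D3:**
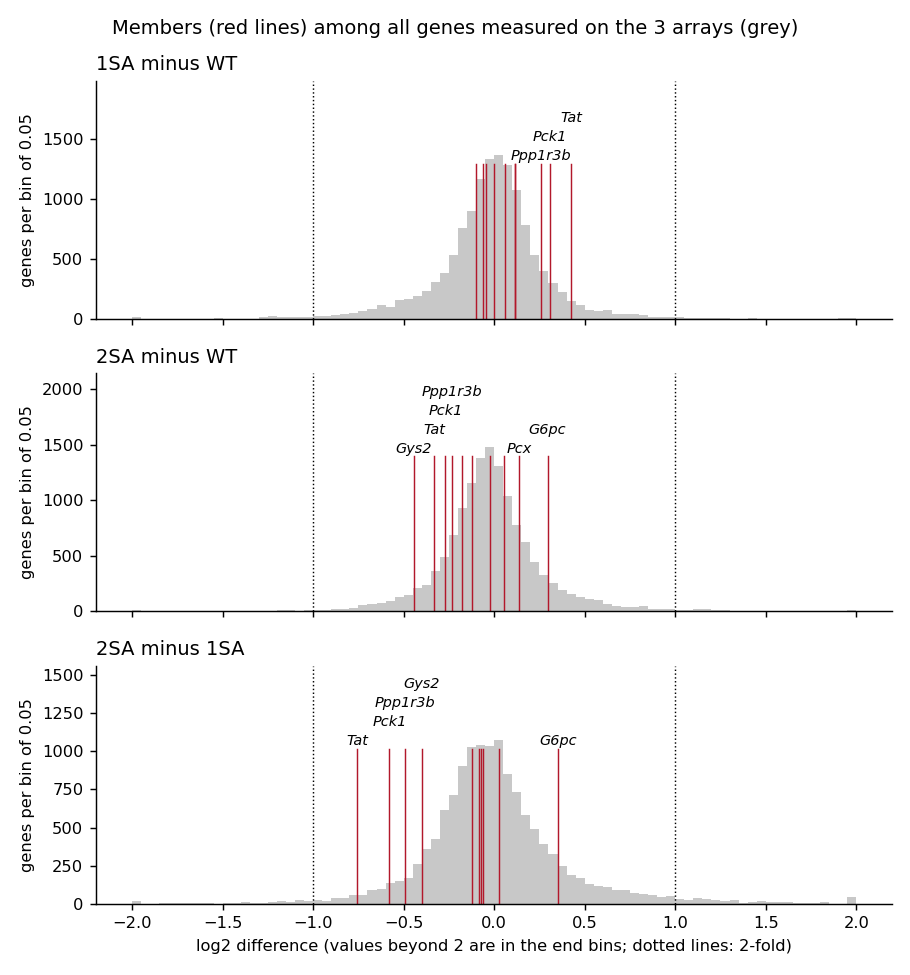
Distribution of the log2 differences of all 13626 genes (grey, number of genes per bin of 0.05, values beyond 2 in the end bins) with the 10 genes as red lines, 1 panel per comparison, and dotted lines at 2-fold. Named are the genes beyond the limit from repeated spots, and all red lines stay inside the dotted lines.

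Tat, Pck1 and Ppp1r3b were above WT in 1SA and below WT in 2SA, both beyond the limit. Over all genes this order was seen for 410, or 3.01%, and opposite directions of either order for 888, or 6.52%. Hepatocyte markers as a list lay in the same directions by sign. All 12 were measured, including Alb, Ttr and Cps1, with 11 above WT in 1SA and 10 below WT in 2SA. Beyond the limit, 4 were higher and 1 lower in 1SA versus WT, against 16.4% and 17.3% of all genes. For 2SA versus WT, 0 were higher and 5 lower, against 14.6% and 18.9%. The marker list was not summarised under quantile normalisation, which turned the signs of Fbp1. Apoa1 went another way, being lower than WT in 1SA (-0.23), level in 2SA (0.0005) and higher in 2SA than in 1SA (0.23). Tdo2 was also not below WT in 2SA (0.06). The median difference of the 12 markers was 0.10 for 1SA versus WT, -0.12 for 2SA versus WT and -0.23 for 2SA versus 1SA. Their summed level was 7375 times the 75th percentile on WT, 7931 on 1SA and 6555 on 2SA, and 2 of the 12 had the same pattern beyond the limit. Scaled to the median of these markers, the differences of 2SA from 1SA were -0.60 for Tat, -0.42 for Pck1 and -0.33 for Ppp1r3b, and the signs versus WT were kept.

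Of 8 other ways of scaling the arrays or choosing probes, 5 could change the value of a gene with 1 probe and 6 that of Gys2 and Ppargc1a. The others returned the same value, since no spot of these genes was flagged, the authors' matrix differs by 1 constant per array, and 8 genes have no other probe to average. Under those that changed the values, Pck1, Tat, Ppp1r3b, Gys2, G6pc and Pcx kept their signs in all comparisons. The difference of 2SA from 1SA ran from -0.78 to -0.60 for Tat, from -0.60 to -0.42 for Pck1, from -0.51 to -0.33 for Ppp1r3b, from -0.42 to -0.24 for Gys2 and from 0.34 to 0.51 for G6pc. Fbp1 and Pygl turned sign for 2SA versus 1SA with quantile normalisation and with hepatocyte markers. Ppargc1a and Ppp1r3c turned sign with the authors' matrix values and with hepatocyte markers, and Ppp1r3c also with normexp background correction.

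**Figure D4:**
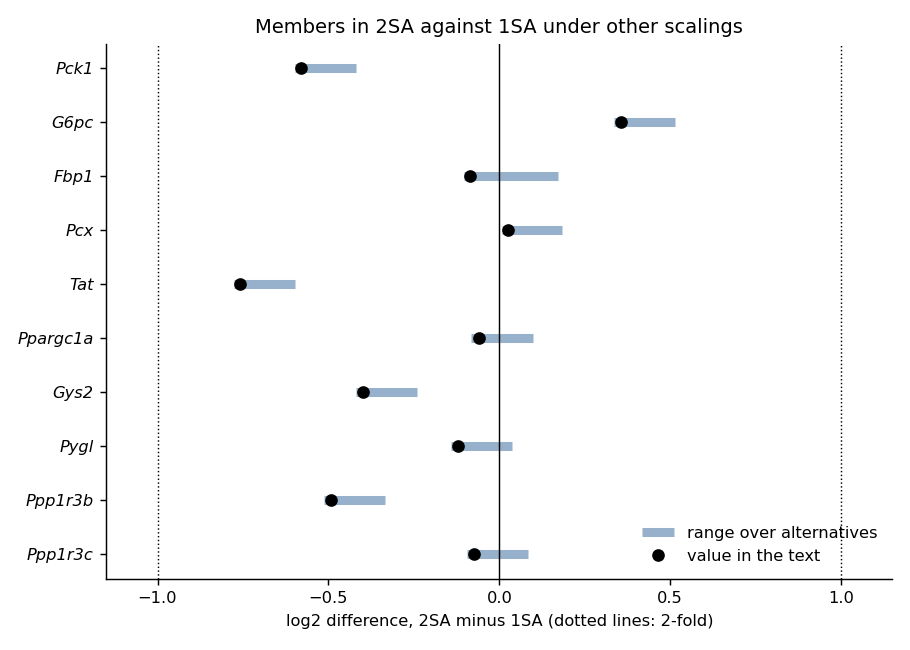
Log2 difference of 2SA from 1SA for each gene (horizontal axis, dotted lines at 2-fold), as given in the text (black points) and over other scalings or probe choices (blue bars from lowest to highest). The bars of Tat, Pck1, Ppp1r3b and Gys2 stay below 0 and those of G6pc and Pcx above it, and the other 4 cross 0.

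The wider pathways were read from lists drawn up by known role, also with earlier results of these data known. Of 27 further enzymes and transporters of gluconeogenesis, 25 were measured on all arrays, and Fbp2 and Aqp3 were not. At 2-fold 0 of the 25 passed in any comparison. Their medians were -0.04 for 1SA versus WT, -0.13 for 2SA versus WT and -0.11 for 2SA versus 1SA, the last turning positive with quantile normalisation (0.014) and with hepatocyte marker scaling (0.049). Beyond the limit from repeated spots, 3 were higher and 7 lower in the 1SA liver than in WT, 2 higher and 12 lower in the 2SA liver than in WT, and 3 higher and 10 lower in the 2SA liver than in 1SA. Over all genes the shares higher and lower were 16.4% and 17.3%, 14.6% and 18.9%, and 19.3% and 24.5%.

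Sds, serine dehydratase, which like Tat brings amino acid carbon into the pathway, was lower in the 2SA liver than in WT (-0.48) and than in 1SA (-0.61) and differed by 0.12 in 1SA. Got1, the cytosolic aspartate aminotransferase, was lowest in 2SA, by -0.50 versus WT and -0.33 versus 1SA. Slc25a1, the citrate carrier, was the highest of the list in 1SA versus WT (0.56). Gk, glycerol kinase, was the highest in 2SA (0.29 versus WT and 0.31 versus 1SA). Pck2, the mitochondrial form of Pck1, was the lowest of the list in 1SA versus WT (-0.29), within its limit of 0.35. Its difference for 2SA versus WT was larger (-0.42) and beyond that limit. It was dim, with an intensity before scaling of 17.1 in the WT liver, 13.2 in 1SA and 14.1 in 2SA.

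Of 28 further genes of glycogen metabolism, 23 were measured, and Ppp1r3a, Ppp1r3e, Ppp1r3f, Ppp1r3g and Epm2a were not measured on all arrays. At 2-fold 0 of the 23 passed in any comparison, and the medians were 0.03, -0.05 and -0.10 in the same order of comparisons, which hepatocyte marker scaling turned to -0.042, 0.041 and 0.057. Beyond the limit, 4 were higher and 1 lower in the 1SA liver than in WT, 2 higher and 4 lower in the 2SA liver than in WT, and 0 higher and 5 lower in the 2SA liver than in 1SA. The shares of all genes given above (16.4% and 17.3%, 14.6% and 18.9%, 19.3% and 24.5%) are the background of these counts. Gbe1, the branching enzyme, was higher in the 1SA liver than in WT by 0.62 and lower in the 2SA liver than in 1SA by -0.58, and its intensity was 9712 in the WT liver, 14147 in 1SA and 10954 in 2SA. Unlike Tat and Pck1 it was level between 2SA and WT (0.04). Nhlrc1, an E3 ligase of glycogen regulators, was lowest in 2SA (-0.62 versus WT) and was dim, with 181.2 in the WT liver. Its other probe, measured on 1 array only, gave 0.08 for 2SA versus WT. Phkg1 (-0.70 for 2SA versus 1SA) and Pygb (0.26) are forms mainly of other tissues and were also dim.

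Regulators of these genes were listed as hormone and transcription control, and 34 of 35 were measured. Their medians were 0.06, -0.07 and -0.15, which hepatocyte marker scaling turned to -0.012, 0.019 and 0.010. The only gene of the 34 at 2-fold, in 1SA and in 2SA versus WT (1.86% and 1.67% of all genes), was Nr4a1, an immediate early nuclear receptor that glucagon signalling induces, with an intensity of 261.4 in the WT liver, 858.2 in 1SA and 618.7 in 2SA. It was higher than WT by 1.79 in 1SA and by 1.11 in 2SA, and 2SA was lower than 1SA by -0.68. Prkaa2, a catalytic subunit of AMP-activated kinase, was higher in 1SA (0.68) and level in 2SA (-0.04). Trib3, an inhibitor of Akt, had the reverse order, at -0.55 in 1SA and 0.30 in 2SA. Esrra, a partner of PGC-1alpha, was lowest in 2SA (-0.49).

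Genes known to follow the nutritional state differed over a wider span than the 10 genes. Of 16 genes that fasting raises, 15 were measured (without Fgf21), with medians of -0.35 for 1SA versus WT, 0.01 for 2SA versus WT (-0.095 with a stricter filter on dim probes) and 0.41 for 2SA versus 1SA. At 2-fold 2 were lower in the 1SA liver than in WT, 2 higher in the 2SA liver than in WT and 4 higher in the 2SA liver than in 1SA, where 1.86%, 1.67% and 3.60% of all genes passed in either direction. Cyp4a14, a fatty acid hydroxylase controlled by PPAR alpha, read 7734 in the WT liver, 709.3 in 1SA and 7117 in 2SA, a log2 difference of -3.37 for 1SA versus WT. Cyp4a10, of the same family, was higher in 2SA than 1SA by 1.30 on its brightest probe and by 0.56 on its dimmest. Angptl4, an inhibitor of lipoprotein lipase, was at -0.86 in 1SA and 0.78 in 2SA, and Txnip, which limits glucose uptake, at -0.59 and 1.24. Igfbp1, a binding protein of insulin-like growth factors that insulin represses, was above WT in both mutants, by 0.75 and 1.08. Lpin1 was lowest of the list in 2SA versus 1SA (-0.62) and Asns in 2SA versus WT (-0.65).

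Of 16 genes listed as raised by feeding, 13 were measured (without Pnpla3, Pnpla5 and Ppp1r3g), with medians of 0.65 for 1SA versus WT and 0.40 for 2SA versus WT. In 2SA versus 1SA the median was -0.33 and the mean -0.01. At 2-fold 4 were higher in the 1SA liver than in WT, 2 higher in the 2SA liver than in WT, and 1 higher and 1 lower in the 2SA liver than in 1SA, beside the same 1.86%, 1.67% and 3.60% of all genes. The lipogenic genes Scd1 (1.52), Fasn (1.30) and Thrsp (1.21) and the sterol regulator Insig1 (1.21) were higher in the 1SA liver than in WT. In 2SA versus WT their differences were 0.24, 0.91, 0.77 and 1.36. Fasn was read by a dim probe, with 121.3 in the WT liver. Me1, malic enzyme, was at 0.78 in 1SA and 0.01 in 2SA. Rgs16, a regulator of G protein signalling, lay below WT in 1SA (-0.77) and was the highest of the list in 2SA versus WT (2.56). Its intensity was 866.3 in the WT liver, 481.3 in 1SA and 5614 in 2SA. It was also the highest in 2SA versus 1SA (3.33), where the list median was negative. The response of Rgs16 to feeding was not tested here.

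Tat is itself a glucocorticoid gene, and 15 of 15 further genes of that response were measured, with medians of 0.14, -0.21 and -0.30. At 2-fold 2 were higher and 1 lower in the 1SA liver than in WT, 2 lower in the 2SA liver than in WT, and 2 higher and 3 lower in the 2SA liver than in 1SA. Of all genes 1.86%, 1.67% and 3.60% passed. Gadd45g, a stress gene, was the most divergent of them, with an intensity of 4407 in the WT liver, 13314 in 1SA and 2256 in 2SA. Mt1, a metallothionein, was at 0.24 in 1SA and -1.06 in 2SA, and Errfi1, an inhibitor of EGF receptor signalling, at 0.28 and -0.77, the same order as Tat. Dusp1, a MAP kinase phosphatase, was higher in 1SA (1.09) and in 2SA (0.34). Cdkn1a, a cell cycle inhibitor, had the reverse order, at -1.18 and 0.51. Angptl4 stands in both the fasting and the glucocorticoid list, Irs2 in the fasting and the regulator list, and Hnf4a and Tdo2 are also among the 12 hepatocyte markers.

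**Figure D5:**
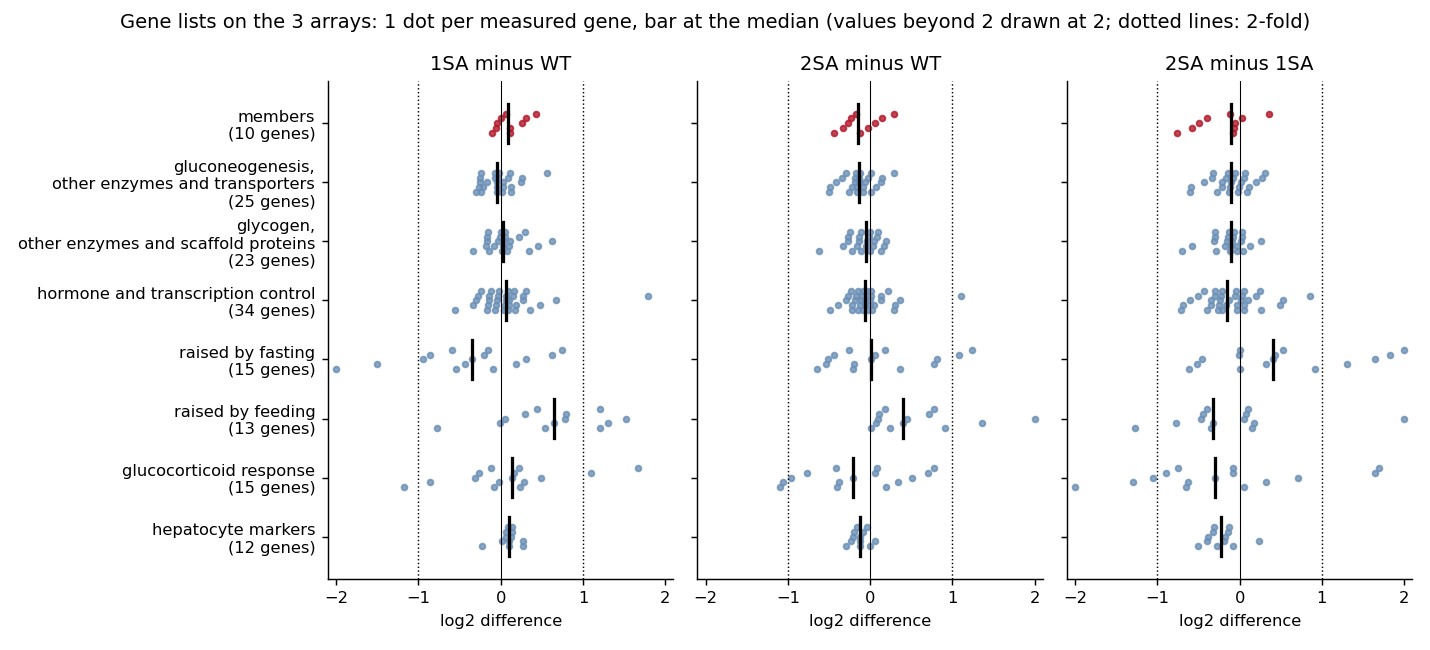
Log2 differences of the measured genes of each list (1 dot per gene, values beyond 2 drawn at 2, bars at the median, dotted lines at 2-fold), 1 panel per comparison. The 10 genes and both pathway lists stay within 2-fold, while genes of fasting, feeding and the glucocorticoid response spread past it.

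Other cell types were checked with marker lists. Sums over probes are carried by the brightest markers, so list medians and some of the markers that went another way are given with them. The summed level of 10 of 10 Kupffer cell markers was 293 times the 75th percentile on WT, 218 on 1SA and 192 on 2SA, with medians of -0.46 for 1SA versus WT and -0.50 for 2SA versus WT. The list was split. In 1SA versus WT Clec4f was higher by 0.45, beyond the limit, and Vsig4 by 0.07, within it. In 2SA versus WT Marco (-1.59) and Clec4f (-1.56) were low, while C1qa was higher (0.16), beyond its limit of 0.13. C1qb (0.04) and Csf1r (-0.01) were within the limit. In 2SA versus 1SA 5 markers were higher and 5 lower. For 8 of 8 markers of liver sinusoidal endothelial cells the sums were 85.6, 89.4 and 72.3, but 5 of the 8 lay below WT in 1SA (median -0.08). In 2SA their median was -0.11, with Clec4g at -0.59, Lyve1 at 0.37 and Pecam1 at 0.35. For 7 of 8 stellate cell markers (without Reln) the sums were 58.4, 53.5 and 38.5 and the medians -0.12 and -0.60. Lrat (0.26) and Dcn (0.10) lay above WT in 1SA, within the limit. For 7 of 7 bile duct markers the sums were 13.4, 4.57 and 11.1, with medians of -0.73 and -0.06. Cftr, a dim marker, was higher than WT by 0.43 in 1SA, beyond its limit of 0.35. For 5 of 8 markers of granulocytes and monocytes (without Ly6g, Mpo and Ly6c2) the sums were 23.0, 24.7 and 21.3, while the medians were 0.23 and 0.13. Ccr2, a receptor of recruited monocytes, was higher than WT by 2.33 in 1SA and by 0.85 in 2SA, and S100a8 was higher by 0.44 in 2SA. Red blood cell genes, 6 of 8, summed to 201 on WT, 342 on 1SA and 267 on 2SA, and were thus highest in 1SA, as Tat, Pck1 and Ppp1r3b were, but lowest in WT. Of genes of neighbouring tissues, 2 of 6 for skeletal muscle were measured, 1 of 5 for adipocytes and 2 of 5 for kidney. Their summed levels were 1.16 or less, and the markers Ckm, Adipoq and Lrp2 were not measured. The part of these cell types in the differences of the 10 genes was not tested.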

How the data were processed

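RNA of 3 mouse liver samples was labelled with Cy3 and hybridised to 3 one-colour Agilent mouse arrays, all on 1 slide. The authors scanned them with Feature Extraction 10.10.1.1, and the deposited intensity is background-subtracted and detrended but not scaled between arrays. The spot flags (scored as other) deposited with it marked 181 WT, 148 1SA and 182 2SA spots, which were left out. The authors' series matrix holds these intensities times 1 constant per array (3.02, 3.08 and 2.81) of unstated origin.

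Each log2 intensity was taken relative to that of the 75th percentile of its array, found from 59305 spots that were not controls. A probe was measured where at least 50% of its spots were well above background, which held for 28972 probes on WT, 29705 on 1SA and 30784 on 2SA. Of 55681 probes, 26762 matched a RefSeq symbol (GRCm38.p6, used for names, while the array design is on mm9), for 20284 genes. A gene was its brightest probe measured on all 3 arrays. With 1 array per group no model was fitted, and the number of arrays limits the precision. The calling step was tested on simulated data.

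The 10 genes, the gene lists and the marker lists were chosen with earlier results of these data known. Named were all members, list genes at least 2-fold apart in any comparison, and the highest and lowest of each list per comparison. Some list genes are not reported here. The rule to name genes of like pattern covered members at 2-fold, of which there were 0. Values were also computed with quantile normalisation, the array median, normexp (offset 50, run on median spot and background brightness, the raw columns used here), the matrix scaled to its 75th percentile, flagged spots kept, the mean of probes, no filter, a stricter filter, and thresholds of 1.5-fold and 3-fold. The matrix as deposited and scaling to hepatocyte markers were tried after seeing the data. Python 3.11.15 (pandas 2.3.3, numpy 2.4.6, scipy 1.17.1, matplotlib 3.10.9) and R 4.3.3 with limma 3.58.1 were used.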

Additional observations from a re-analysis of the deposited data

Results flagged for a closer look

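Of the 10 genes, 3 were singled out because they lay on opposite sides of WT in the 2 mutants, each beyond the limit from repeated spots. Their difference of 2SA from 1SA was -0.76 for Tat, -0.58 for Pck1 and -0.49 for Ppp1r3b. Among the named genes of the other lists, the same held for Gadd45g (-2.77), Mt1 (-1.30) and Errfi1 (-1.05), which were also higher in 1SA and lower in 2SA than WT. The reverse order was seen for Trib3 (0.85), Angptl4 (1.64), Cdkn1a (1.69), Txnip (1.83) and Rgs16 (3.33). With 1 array per group these differences were not tested. Over all 13626 genes, 6.52% lay on opposite sides of WT beyond the limit.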

How the results depend on the processing

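No paired analysis was possible because there was a single array in each group, and for the same reason no array could be left out. Spot error was the only error measured, so a difference within 0.13 to 0.35 by signal was not detectable.

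At 2-fold 254 genes passed for 1SA versus WT, 227 for 2SA versus WT and 490 for 2SA versus 1SA. These counts became 1056, 927 and 1575 at 1.5-fold, 55, 54 and 120 at 3-fold, 1341, 1307 and 1524 with no filter on dim probes, 99, 81 and 210 with the stricter filter and 97, 87 and 205 with normexp. Of the 10 genes, 1 passed at 1.5-fold, for 2SA versus 1SA. Of the other gluconeogenesis genes, where 0 had passed, 2 passed at 1.5-fold for 2SA versus 1SA, and with no filter 1 passed in each comparison. Of the other glycogen genes, where 0 had passed, 1 passed at 1.5-fold in each comparison, and with no filter 1 for 1SA versus WT and 1 for 2SA versus WT.

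In the regulator list, counts of 1, 1 and 0 became 2, 1 and 4 at 1.5-fold, with 0 for 2SA versus WT at 3-fold or with normexp and 1 for 2SA versus 1SA with hepatocyte marker scaling. In the fasting list, 2 and 2 versus WT became 7 and 5 at 1.5-fold and 1 and 0 at 3-fold. In the feeding list, 4, 2 and 2 became 8, 5 and 3 at 1.5-fold and 0, 1 and 1 at 3-fold. In the glucocorticoid list, 3, 2 and 5 became 4, 6 and 10 at 1.5-fold and 1, 0 and 3 at 3-fold, with 1 for 2SA versus WT under hepatocyte marker scaling.

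Hepatocyte marker scaling moved the median of all genes for 2SA versus 1SA from -0.03 to 0.13. The median of the 10 genes moved with it to 0.056, those of the other gluconeogenesis and glycogen genes to 0.049 and 0.057 and that of the regulators to 0.010, so that these 4 turned positive while staying below that of all genes. The fasting median became 0.57, the feeding median -0.17 and the glucocorticoid median -0.14. Quantile normalisation gave 0.014 for the other gluconeogenesis genes, 2SA versus 1SA, and normexp gave -0.16 for the glucocorticoid list. The mean of probes gave feeding medians of 0.50 for 1SA versus WT and -0.20 for 2SA versus 1SA. The stricter filter gave -0.14 for the latter and -0.10 for the fasting list in 2SA versus WT. The other 197 of 210 medians moved by less than 0.105, the SD that repeated spots gave for a difference, and some of those near 0 turned sign, such as that of the 10 genes for 1SA versus WT (-0.016 with quantile normalisation). Except where the threshold or the set of genes was itself changed, the cause was not tested.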
